A study of Mus musculus with 18 samples.

Results

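The MHC class II genes analysed here were 10 mouse genes: the classical chains H2-Aa, H2-Ab1 and H2-Eb1, the invariant chain Cd74, the peptide-loading chains H2-DMa, H2-DMb1 and H2-DMb2, the loading inhibitor chains H2-Oa and H2-Ob, and the transactivator Ciita. They were chosen by name, as every probe whose RefSeq accession belonged to 1 of these genes, which gave 12 probes among the 55681 probes of the array and 10 genes among the 20660 gene symbols that could be assigned. Of the 10 genes, 8 had 1 probe, and H2-Ab1 and H2-Ob had 2 probes each. RNA was measured in lung of adult male Muta™Mouse (labelled MutaTMMouse), a transgenic strain kept on a BALB/C-DBA/2 background and about 12 weeks old. All mice were gavaged daily over 28 days and their lungs were taken 3 days after the last dose. The vehicle group (5 mice) received olive oil alone. The other groups received the 4PAH-Mix in olive oil, a mixture of the polycyclic aromatic hydrocarbons benzo[a]pyrene (BaP), benz[a]anthracene, benzo[b]fluoranthene and chrysene, at 12.5 (low dose, 4 mice), 25 (medium dose, 5 mice) or 50 (high dose, 4 mice) mg BaP equivalents/kg-bw/day. Each value is the log2 ratio of a mouse's lung RNA, labelled with Cy5, over a common Cy3-labelled reference RNA pooled from 11 mouse cell lines, so a value compares mice for 1 probe and says nothing about which gene had more RNA.

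MHC class II molecules display peptides from the endosomal pathway to CD4 T cells. An alpha chain and a beta chain assemble in the endoplasmic reticulum on the invariant chain Cd74, whose remnant CLIP is later exchanged for peptide with the help of H2-DM, and H2-O holds H2-DM back. Transcription depends on CIITA, which is recruited to promoters by factors that sit on conserved elements called the X box (RFX) and the Y box (NF-Y). In lung, dendritic cells, B cells, some macrophages and the alveolar type 2 epithelium carry class II, whereas H2-O is largely a product of B cells.

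Of the 10 genes, 8 lay together on chromosome 17 between positions 34092379 and 34316674 of GRCm38.p6, a stretch of 224.3 kb. Promoter windows, running from 250 bases before to 50 bases after a transcription start, were given in RefSeq's table (GRCm38.p6) for 7 of the genes, in 8 windows. Of these genes, 5 held the letters GNAAC, the core of an X box, followed 15 to 35 bases later by the Y box letters GATTGG on the gene's own strand. The stretches are shown because both the H2-O chains, whose values differed from vehicle, and the classical chains H2-Aa and H2-Eb1, whose values did not pass the test, carry this arrangement. X core and Y box are in capitals, the sequences read 5′ to 3′ along the gene, and all of them lie upstream of the start.
H2-Oa (chr17:34092295-34092348, plus strand): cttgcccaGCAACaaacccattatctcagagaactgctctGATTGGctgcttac
H2-Ob (chr17:34238810-34238860, plus strand): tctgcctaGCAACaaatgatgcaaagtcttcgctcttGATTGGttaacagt
H2-DMb1 (chr17:34153089-34153142, plus strand): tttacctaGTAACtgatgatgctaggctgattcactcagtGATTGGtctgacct
H2-Aa (chr17:34287859-34287912, minus strand): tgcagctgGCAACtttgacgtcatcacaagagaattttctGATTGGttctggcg
H2-Eb1 (chr17:34305768-34305820, plus strand): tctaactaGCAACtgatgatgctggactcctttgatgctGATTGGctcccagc
Between 24 and 27 bases separated X core and Y box in these 5 promoters. The same pair, at any spacing in the range searched, stood on the gene's strand in 0.597% of 32851 windows of all genes and on either strand in 1.205%, whereas GATTGG alone stood on either strand in 16.109%. The windows of H2-DMb2 and of H2-DMa held GATTGG without the pair, in 1 of 2 windows for H2-DMa. The letters were set after these windows had been read, so the match is a description of the sequences and not a test. No window was listed for H2-Ab1, Ciita or Cd74.

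All 12 probes could be measured in lung. The lung (Cy5) signal of 11 probes was well above background on all 18 arrays, and that of Ciita on 17. The reference (Cy3) signal was dimmer for some: H2-DMb2 and the dimmer H2-Ob probe were not well above background in Cy3 on any array, and the brighter H2-Ob probe was so on 9 of 18, so their ratios rest on a reference value close to background. The H2-Aa reference signal was low too, at 73 to 104 intensity units, though well above background on 17 of 18 arrays. No probe was saturated. The arrays lay on 3 slides that each held mice of all 4 groups, and since each dose group took its own column of the slides, column and dose cannot be told apart. Median Cy5 signal was 110 to 142 and median Cy3 signal 75 to 89 intensity units per array. P-values measure the spread between mice of this study.

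The question put to each gene was whether its lung RNA differed between a dose and the vehicle. H2-Oa and H2-Ob, the 2 chains of the inhibitor H2-O, passed the test as higher than vehicle at the medium dose, and H2-Oa also at the high dose. These calls were lost under some other ways of processing, and the sign of H2-Ob turned under the scanner software's own ratios. The classical chains, Cd74, the H2-DM chains and Ciita passed the test at no dose. A probe was called where limma gave a Benjamini-Hochberg adjusted p no higher than 0.05 together with a change of 1.5-fold or more. At the medium dose 3 of 12 class II probes were called, all higher (H2-Oa and both H2-Ob probes), where 0.726% of all probes were called and 0.278% were called higher. At the high dose 2 of 12 were called, both higher (H2-Oa and the dimmer H2-Ob probe), where 1.20% of all probes were called and 0.399% were called higher. At the low dose limma called 0 of 12, where 0.0898% of all probes were called. By the brightest probe of each gene, the limma p before adjustment was under 0.05 for 3 of the 10 genes at the low dose, 2 higher and 1 lower, where 3.79% of all probes were higher and 4.22% lower at that p. At the medium dose it was so for 4 genes higher and 2 lower (7.79% and 7.48% of all probes), and at the high dose for 2 higher and 2 lower (7.87% and 7.85% of all probes). The median log2 fold change over the 10 genes was -0.04 (low), 0.12 (medium) and -0.07 (high), beside medians of 0.00 over all probes in each comparison. The 3 comparisons share the 5 vehicle arrays and are therefore not independent of each other.

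**Figure D1:**
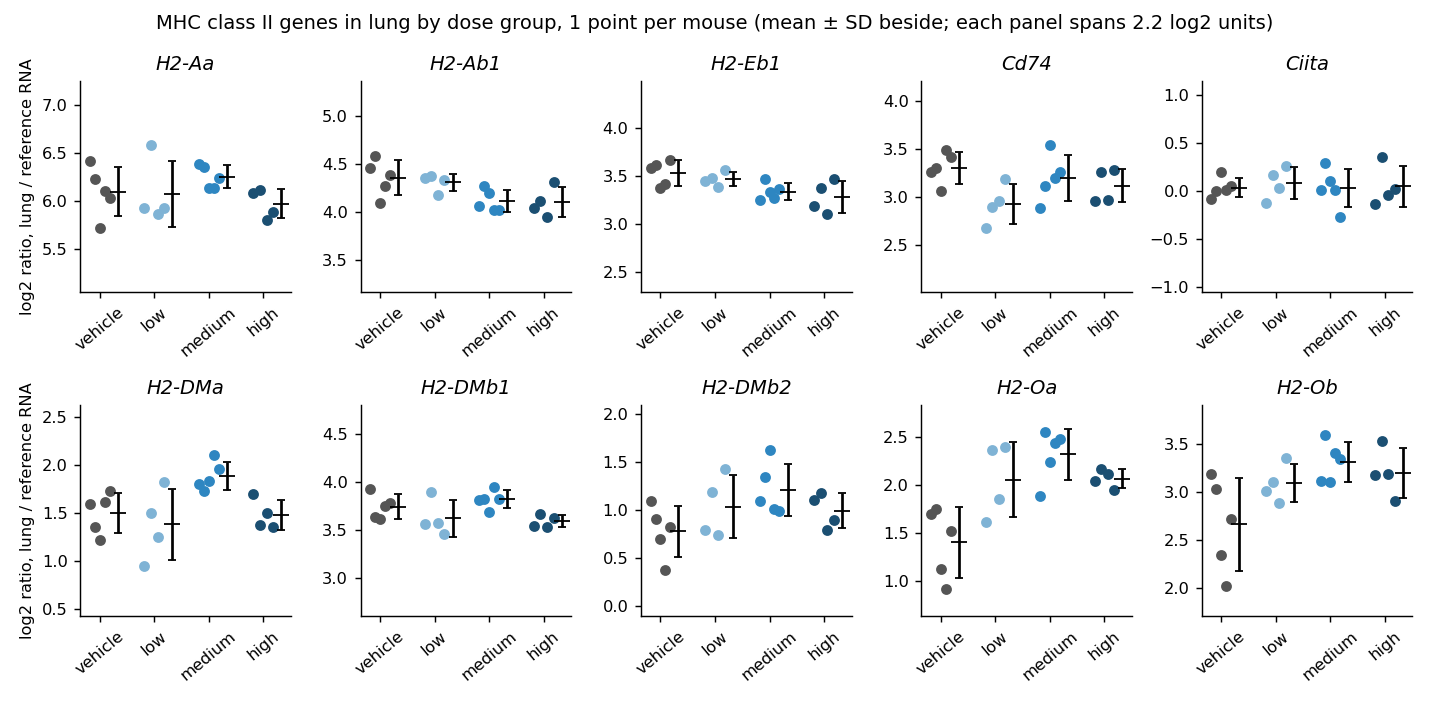
Log2 ratio of lung over reference RNA (vertical axis, log2 units, the same span of 2.2 units in every panel) for the 10 MHC class II genes by dose group (horizontal axis); each point is 1 mouse and the bar beside it is mean ± SD. The H2-Oa points of the 5 medium-dose mice lie between 1.89 and 2.55, above all 5 vehicle mice (0.92 to 1.75), whereas the H2-Ab1 and H2-Eb1 groups overlap.

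**Figure D2:**
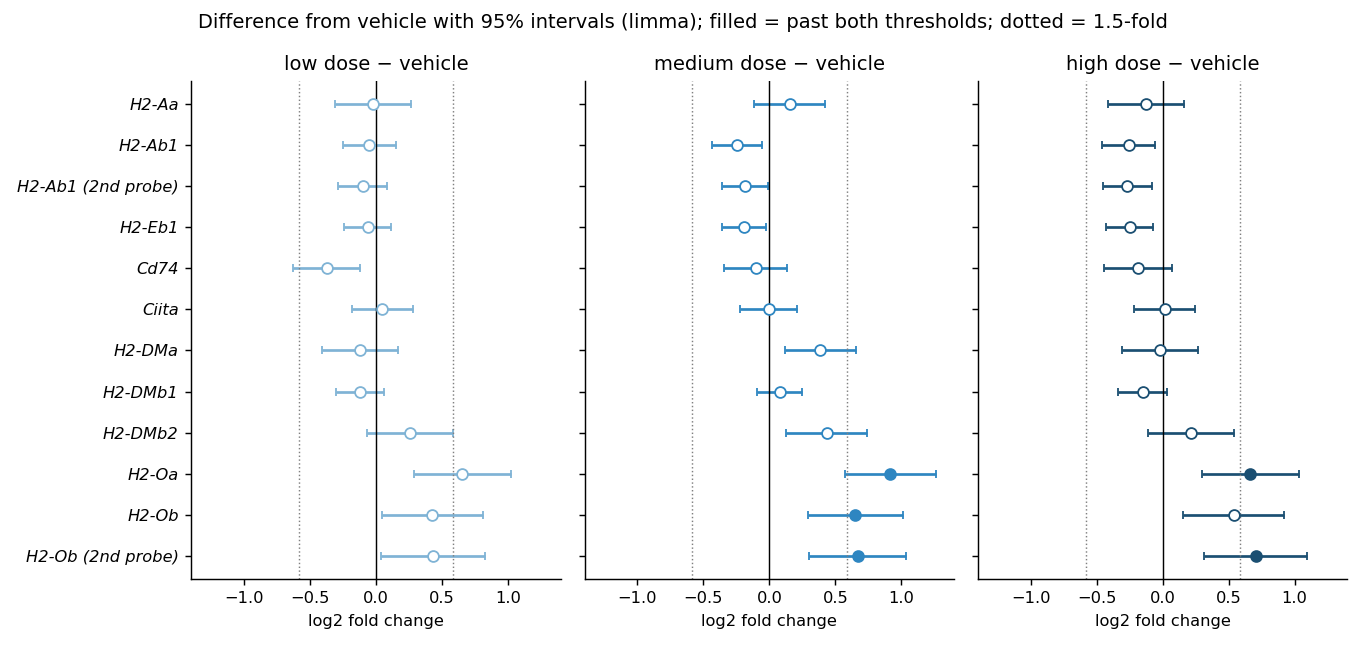
Log2 fold change from vehicle (horizontal axis) with 95% confidence intervals from limma for the 12 class II probes at each dose; filled points passed both thresholds and dotted lines mark 1.5-fold. Filled points are H2-Oa and both H2-Ob probes at the medium dose and H2-Oa and the 2nd (dimmer) H2-Ob probe at the high dose.

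H2-Oa encodes the alpha chain of H2-O. The 5 vehicle mice had log2 ratios of 1.70, 1.75, 1.12, 0.92 and 1.52. The 4 low-dose mice had 1.61, 2.36, 1.85 and 2.40, the 5 medium-dose mice 1.89, 2.55, 2.24, 2.43 and 2.48, and the 4 high-dose mice 2.04, 2.16, 2.11 and 1.94. Every medium-dose and every high-dose mouse lay above the highest vehicle mouse, and 3 of 4 low-dose mice did. Group means were 1.40 ± 0.37 (SD, n = 5) in vehicle, 2.06 ± 0.39 (n = 4) at the low, 2.32 ± 0.27 (n = 5) at the medium and 2.07 ± 0.09 (n = 4) at the high dose. H2-Oa rose at the medium dose by 0.92 on the log2 scale (SE 0.17, 1.89-fold, limma adjusted p = 0.00298). The rise at the high dose was 0.66 (SE 0.18, 1.58-fold, limma adjusted p = 0.0341). The two-sided exact permutation p was 0.00794 at the medium dose, the smallest that 5 against 5 or 4 against 5 mice allow, and 0.0238 at the high dose. At the low dose the difference was 0.65 (95% interval 0.29 to 1.02, limma adjusted p = 0.190, exact permutation p = 0.0476), which did not pass the threshold over all probes. The rise at the medium dose passed with each mouse left out in turn (0.80 to 1.02). At the high dose the call was lost without vehicle mouse 3 (0.59) or 4 (0.54) and without high-dose mouse 16 (0.67), 17 (0.63) or 18 (0.65).

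H2-Ob encodes the beta chain of H2-O. On its brighter probe the vehicle mice had log2 ratios of 3.19, 3.03, 2.35, 2.02 and 2.72. The low-dose mice had 3.01, 3.101, 2.89 and 3.35, the medium-dose mice 3.12, 3.59, 3.0999, 3.41 and 3.35, and the high-dose mice 3.17, 3.53, 3.19 and 2.90. The vehicle group was the widest of the 4 and overlapped with each dose group, and 3 of 5 medium-dose mice lay above all vehicle mice. H2-Ob rose at the medium dose by 0.65 (SE 0.17, 1.57-fold, limma adjusted p = 0.0373, exact permutation p = 0.0238) on this probe and by 0.67 (limma adjusted p = 0.0383) on the dimmer one. At the high dose the 2 probes fell on different sides of the threshold, with 0.54 (limma adjusted p = 0.113) on the brighter and 0.70 (limma adjusted p = 0.0358) on the dimmer probe. At the low dose they gave 0.43 each (limma adjusted p = 0.553 and 0.571). The medium-dose call of the brighter probe was lost without vehicle mouse 3 (0.57), 4 (0.49) or 5 (0.67) and without medium-dose mouse 12 (0.58), 14 (0.63) or 15 (0.64). The scanner software's ratios, which subtract background, turned its direction (low -0.21, medium -0.28 and high dose -0.36, none called), whereas the Cy5 signal alone, which uses no reference value, gave 0.71 at the high dose (limma adjusted p = 0.0242).

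The vehicle mice with the lowest H2-Oa and H2-Ob, mice 3 and 4, lay together on slide 2. Within slides, the H2-Oa difference between the mean of a dose group and that of the vehicle was positive in 9 of 9 combinations of slide and dose, from 0.26 to 1.32. On slides 1, 2 and 3 it was 0.49, 1.32 and 0.96 at the medium dose and 0.38, 1.09 and 0.42 at the high dose. On its brighter probe H2-Ob was higher in 8 of 9 combinations, from -0.05 on slide 1 at the low dose to 1.07 on slide 2 at the medium dose. At the medium and high dose both chains thus differed most from vehicle on slide 2. With all arrays of slide 2 left out, limma called 0 class II probes at either dose: H2-Oa differed from vehicle by 0.65 (adjusted p = 0.113) at the medium and 0.39 (adjusted p = 0.409) at the high dose, and H2-Ob by 0.37 (adjusted p = 0.325) at the medium dose. With the slide as a block in the model the class II counts stayed at 3 and 2 probes, beside 442 and 702 of all probes. They stayed so too with the row of the slide as a block (439 and 735 of all probes). Each of the 5 rows held 1 vehicle mouse. Centring each array on its median in place of loess also left 0 class II calls, where 29 (medium) and 78 (high) of all probes were called. H2-Oa then stood at 0.89 (limma adjusted p = 0.433) at the medium and 0.73 (limma adjusted p = 0.598) at the high dose. Under the scanner's ratios H2-Oa at the high dose (0.68) had a limma adjusted p of 0.0868.

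**Figure D3:**
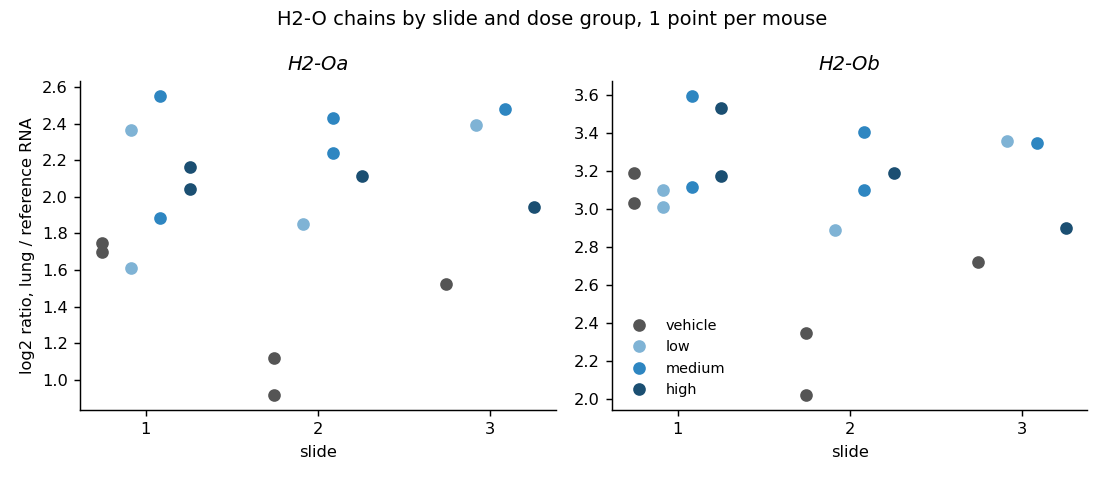
Log2 ratio of H2-Oa and H2-Ob (vertical axes, lung over reference RNA) by slide (horizontal axis), with 1 point per mouse coloured by dose group. On slide 2 the 2 vehicle mice have H2-Oa ratios of 1.12 and 0.92, while the dosed mice of that slide lie between 1.85 and 2.43.

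Some markers of B cells also differed from vehicle. Of 12 B cell markers, 3 were called higher at the medium dose: Cd79b (0.70), a chain of the B cell receptor complex, Ms4a1 (0.70), which encodes CD20, and Fcer2a (0.81), which encodes CD23. None was called at the low or high dose, and none was called lower at any dose. Their median log2 fold change was 0.34 (low), 0.48 (medium) and 0.34 (high). Of all probes, 3.79%, 7.79% and 7.87% were higher at a limma p before adjustment under 0.05, and 4.22%, 7.48% and 7.85% were lower. At that p, 6, 8 and 7 of the 12 markers were higher, and 0, 0 and 1 were lower. The lower one was Cd22, an inhibitory receptor of B cells, with -0.13 (low), -0.15 (medium) and -0.26 (high), and Pax5, the factor that defines the lineage, had 0.11, 0.06 and -0.11. The mean log2 ratio over the 12 markers was 0.61 to 1.38 in vehicle mice, 1.25 to 1.504 at the low, 1.11 to 1.65 at the medium and 1.26 to 1.501 at the high dose. It was lowest in vehicle mice 4 and 3, the same mice that were lowest for H2-Oa and H2-Ob. Its difference from vehicle within slides 1, 2 and 3 was 0.04, 0.91 and 0.32 at the medium dose and 0.08, 0.56 and 0.19 at the high dose. All 12 markers, the defining Cd79a and Pax5 among them, were detected, Blk on 11 of 18 arrays and the others on all. Pearson's r between H2-Oa and the B cell mean was 0.90 over 18 arrays (Spearman's rho 0.84), 0.83 after group means were removed, 0.78 over the 8 arrays of slide 1, 0.97 over the 6 of slide 2, and 0.76 without the 2 arrays farthest from the median B cell mean. For H2-Ob it was 0.90, 0.83, 0.68, 0.94 and 0.70 in the same order. With the mean log2 ratio of T cell markers H2-Oa gave 0.72 over 18 arrays, and 0.86 after group means were removed, above its 0.83 with the B cell mean. These values describe arrays that share slides and a reference, and the part of B cell RNA in the H2-O result was not tested. In whole lung, more cells of a type and more RNA per cell cannot be told apart.

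**Figure D4:**
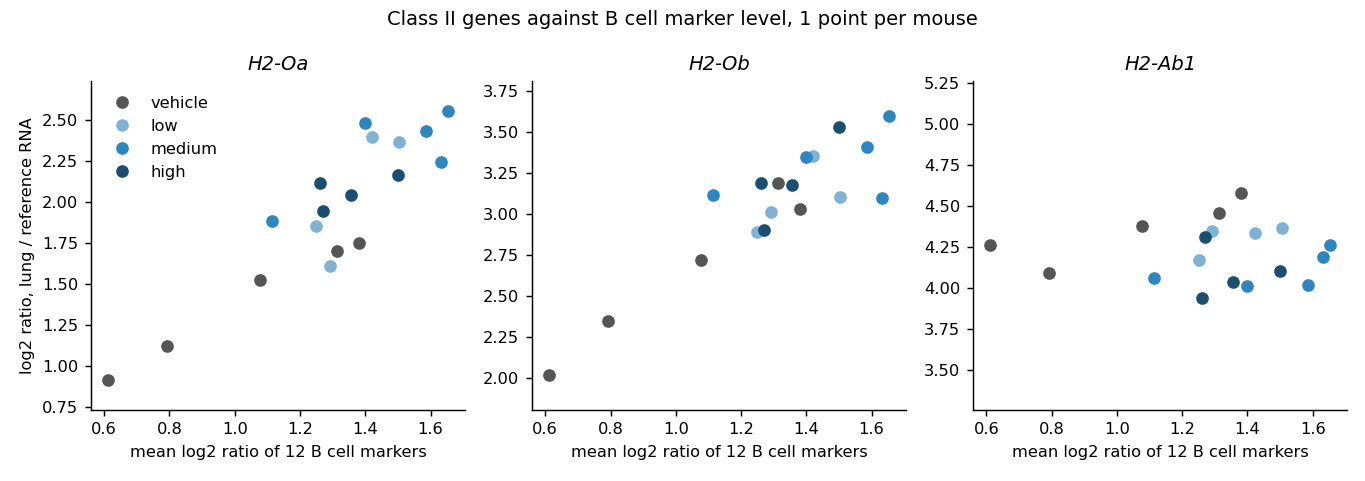
Log2 ratio of H2-Oa, H2-Ob and H2-Ab1 (vertical axes, lung over reference RNA) against the mean log2 ratio of 12 B cell markers (horizontal axes), 1 point per mouse coloured by dose group. H2-Oa and H2-Ob increase along the B cell mean (r = 0.90 each), whereas H2-Ab1 does not over all 18 mice (r = 0.01). After group means were removed, H2-Ab1 gave r = 0.63 with the B cell mean, beside 0.83 for H2-Oa and for H2-Ob.

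Among the classical chains, H2-Aa encodes the alpha chain of I-A, H2-Ab1 its beta chain and H2-Eb1 the beta chain of I-E. H2-Ab1 had log2 ratios of 4.46, 4.58, 4.09, 4.26 and 4.38 in vehicle mice. At the low dose it had 4.35, 4.37, 4.17 and 4.33, at the medium dose 4.06, 4.27, 4.19, 4.02 and 4.01, and at the high dose 4.04, 4.11, 3.94 and 4.31. Medium-dose and high-dose mice lay mostly in the lower part of the vehicle range or below it, with 3 of 5 and 2 of 4 below the lowest vehicle mouse. The difference from vehicle was -0.05 at the low, -0.24 (95% interval -0.43 to -0.06) at the medium and -0.26 (-0.46 to -0.06) at the high dose, with limma adjusted p of 0.946, 0.164 and 0.165. The second H2-Ab1 probe gave -0.10, -0.18 and -0.27, with adjusted p of 0.848, 0.296 and 0.103.

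H2-Eb1 had log2 ratios of 3.59, 3.61, 3.37, 3.42 and 3.67 in vehicle mice and 3.45, 3.47, 3.38 and 3.56 at the low dose. It had 3.25, 3.47, 3.33, 3.27 and 3.36 at the medium and 3.18, 3.37, 3.11 and 3.46 at the high dose. The medium-dose values sat at the low end, with 4 of 5 below the lowest vehicle mouse, and the groups overlapped. The difference was -0.06, -0.19 (95% interval -0.36 to -0.03) and -0.25 (-0.43 to -0.07) with rising dose (limma adjusted p = 0.913, 0.231 and 0.115; exact permutation p = 0.389, 0.0397 and 0.0714). Within slides, the brighter H2-Ab1 probe and H2-Eb1 were each lower than vehicle in 9 of 9 combinations of slide and dose, by amounts from -0.01 to -0.45 for H2-Ab1 and to -0.32 for H2-Eb1, and the second H2-Ab1 probe was lower in 8 of 9 (-0.41 to 0.02). Within rows of the slides, H2-Eb1 was below the vehicle mouse of its row in 13 of 13 dosed mice, and H2-Ab1 in 12 of 13 on either probe, where the dosed mice of a row share that vehicle mouse. At the high dose H2-Eb1 had a limma adjusted p of 0.0333 with the row as a block and 0.0286 with the slide as a block (-0.27 in both), under 1.5-fold and so not called, within a range of 0.0286 to 0.999 over the alternatives run. The sign of the medium-dose difference was turned for both by the Cy5 signal alone (0.08 each), so no direction is given at that dose. At the high dose, the difference over the alternatives run was -0.32 to -0.0055 for H2-Ab1 and -0.29 to 0.0015 for H2-Eb1. Neither gene was called.

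H2-Aa had log2 ratios of 6.41, 6.23, 5.71, 6.11 and 6.03 in vehicle mice. The dose groups overlapped with vehicle at each dose, with means of 6.10 ± 0.26 (SD, n = 5) in vehicle, 6.07 ± 0.34 (n = 4) at the low, 6.25 ± 0.12 (n = 5) at the medium and 5.97 ± 0.15 (n = 4) at the high dose. Its differences of -0.02, 0.15 and -0.13 had 95% intervals of -0.31 to 0.26, -0.12 to 0.42 and -0.41 to 0.16, and limma adjusted p of 0.986, 0.664 and 0.755. A 1.5-fold difference, 0.585 on the log2 scale, thus lay outside the interval of H2-Aa, H2-Ab1 and H2-Eb1 at each dose.

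Cd74 encodes the invariant chain and lies outside the class II region, on chromosome 18. Vehicle mice had log2 ratios of 3.26, 3.30, 3.06, 3.50 and 3.42, low-dose mice 2.68, 2.90, 2.96 and 3.19, medium-dose mice 2.89, 3.12, 3.54, 3.20 and 3.26, and high-dose mice 2.97, 3.26, 2.98 and 3.28. The low-dose group was the lowest, with 3 of 4 mice below all vehicle mice, while 1 of 5 medium-dose mice lay below and 1 above the vehicle range and 2 of 4 high-dose mice lay below it. The differences were -0.38 (95% interval -0.63 to -0.12), -0.10 and -0.19 with rising dose, with limma adjusted p of 0.347, 0.768 and 0.523. The exact permutation p of Cd74 at the low dose was 0.0317 before any adjustment.

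Ciita, on chromosome 16, encodes the transactivator on which class II transcription depends, and was close to the reference on every array. Its log2 ratio was -0.08 to 0.20 in vehicle, -0.12 to 0.26 at the low, -0.26 to 0.29 at the medium and -0.13 to 0.36 at the high dose, and the groups overlapped fully. The differences from vehicle were 0.05, -0.01 and 0.01 (limma adjusted p = 0.960, 0.993 and 0.975), and their 95% intervals reached -0.22 at the lower and 0.28 at the upper end. Its Cy5 signal was 104 to 164 intensity units, close to the median of the arrays, so a change in Ciita was measured at low signal. Ciita is read from several promoters in different cell types, and the array held 1 probe for it.

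H2-DM, the heterodimer that removes CLIP, is made of the H2-DMa alpha chain and an H2-DMb1 or H2-DMb2 beta chain. H2-DMa had log2 ratios of 1.59, 1.36, 1.22, 1.61 and 1.73 in vehicle mice. It had 0.95, 1.51, 1.25 and 1.83 at the low dose, 1.80, 1.74, 1.84, 2.11 and 1.96 at the medium dose, and 1.70, 1.38, 1.501 and 1.36 at the high dose. The medium-dose mice all lay above the vehicle mice, while low-dose and high-dose mice spread through the vehicle range. At the medium dose the difference was 0.39 (95% interval 0.12 to 0.66, 1.31-fold), with an exact permutation p of 0.00794 and a limma adjusted p of 0.116, so that it passed neither the fold nor the adjusted threshold. At the low and high dose it was -0.12 and -0.02 (limma adjusted p = 0.897 and 0.971). Groups that did not overlap, with the dose higher, were found for 2 of 12 class II probes at the medium dose (H2-Oa and H2-DMa; 2.31% of all probes) and for 1 at the high dose (H2-Oa; 3.78% of all probes).

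The beta chains of H2-DM are near-identical neighbours, and their probes may not fully separate them. H2-DMb1 had group means of 3.75 ± 0.13 (SD, n = 5) in vehicle, 3.63 ± 0.19 (n = 4), 3.82 ± 0.09 (n = 5) and 3.60 ± 0.06 (n = 4) at the low, medium and high dose. Its differences of -0.12, 0.08 and -0.15 had limma adjusted p of 0.794, 0.765 and 0.451. H2-DMb2 had vehicle values of 1.09, 0.91, 0.70, 0.37 and 0.83 and medium-dose values of 1.09, 1.35, 1.63, 1.01 and 0.99. Of the medium-dose mice 3 lay above all vehicle mice, and vehicle mouse 4 was again the lowest. Its differences were 0.26 (low), 0.43 (medium) and 0.22 (high), with limma adjusted p of 0.734, 0.121 and 0.577. H2-DMb2 followed the B cell mean (r = 0.80 over 18 arrays, 0.71 after group means were removed), whereas H2-DMb1 gave r = 0.15 and 0.23.

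Between doses, no class II probe passed. Limma called 0 of 12 for medium against low and for high against medium, where 0 of all probes were called, and 0 of 12 for high against low, where 0.0449% were. Before adjustment the limma p was under 0.05 for 3 of the 10 genes for medium against low (H2-DMa 0.51, H2-DMb1 0.20 and Cd74 0.27, all higher; 2.67% of all probes), for 0 for high against low (6.71%) and for 2 for high against medium (H2-DMa -0.41 and H2-DMb1 -0.23, both lower; 1.88%). In high against medium, 3 of 12 probes had groups that did not overlap, with the high dose lower (H2-Aa, H2-DMa and H2-DMb1; 0.769% of all probes), and each had a limma adjusted p of 1. H2-Oa differed by 0.26 (95% interval -0.10 to 0.63) between medium and low, by 0.01 (-0.38 to 0.40) between high and low and by -0.25 (-0.62 to 0.11) between high and medium dose. In the order of group means, H2-Oa ran from vehicle over low and high to medium, and neighbours in this order did not differ past the threshold.

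The other genes of the pathway gave few calls. The regulators that sit on class II promoters (Rfx5, Rfxank, Rfxap, Nfya, Nfyb, Nfyc and Creb1) had 0 of 7 called by limma at each dose, with 1, 2 and 2 higher at an unadjusted p under 0.05, and medians of 0.08, 0.07 and 0.09. Rfxank, a subunit of RFX, and Nfyb, a subunit of NF-Y, passed the adjusted p but stayed under 1.5-fold at the medium dose (0.40 and 0.47, limma adjusted p = 0.0101 each) and at the high dose (0.33 and 0.45, limma adjusted p = 0.0391 and 0.0158). The 3 Nfyb probes differed. A dimmer probe gave 0.48 at both doses, and another gave 0.08 and 0.11 (limma adjusted p = 0.77 and 0.64). The interferon gamma axis, the main inducer of CIITA, had 0 of 7 called at each dose, with medians of 0.04, 0.06 and 0.04. Before adjustment it had 0 to 1 gene in either direction. Irf1 passed the adjusted p at the medium dose under 1.5-fold (0.28, limma adjusted p = 0.0497), whereas its dimmer probe gave -0.02 (limma adjusted p = 0.957). The enzymes of endosomal antigen processing had 0 of 6 called and medians of -0.12, 0.04 and 0.05, and genes of class II turnover and co-stimulation had 0 of 6 called and medians of 0.11, 0.18 and 0.00. Before adjustment, the enzymes had 0, 2 and 1 gene higher and 0, 1 and 0 lower, and the turnover and co-stimulation genes 0, 3 and 0 higher and 1, 0 and 1 lower. Of the enzymes, Ctsd passed the adjusted p at the high dose under 1.5-fold (0.34, limma adjusted p = 0.0423). Its dimmer probe gave 0.24 (limma adjusted p = 0.379). Of the turnover genes, Marchf1 had 2 probes that differed at the medium dose. The brighter gave 0.13 (limma adjusted p = 0.82) and the dimmer 0.54 (limma adjusted p = 0.0080), the latter under 1.5-fold. H2-Eb2, a further class II beta chain of the region, differed from vehicle by 0.22 (low), 0.54 (medium) and 0.41 (high). Its limma adjusted p was 0.651, 0.00576 and 0.0389, and its fold stayed under 1.5, so it was not called. Of 9 genes of class I presentation 1 was called, at the medium dose: Tap1, a subunit of the peptide transporter, rose by 0.59 (limma adjusted p = 0.00884). At that dose Psmb9 (0.44, limma adjusted p = 0.0124) and Psmb8 (0.38, limma adjusted p = 0.0400) passed the adjusted p but not the fold. Before adjustment 0, 6 and 1 of the 9 class I genes were higher with rising dose, and 1, 0 and 0 lower. The shares of all probes before adjustment are those given beside the B cell markers above.

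Markers of other cell types gave no calls by the brightest probe of each gene. Dendritic cell markers (0 of 10 called at each dose by limma) had medians of -0.18, -0.05 and -0.20, and before adjustment 0, 1 and 1 gene was higher and 4, 3 and 5 were lower. For this and the following lists, the shares of all probes before adjustment are again those given beside the B cell markers. The 2 probes of Siglech, a surface receptor of plasmacytoid dendritic cells, fell on different sides of the threshold. Its dimmer probe was called lower at the medium (-0.88, limma adjusted p = 0.00298) and high dose (-1.01, limma adjusted p = 0.00107), and its brightest gave -0.46 (limma adjusted p = 0.0340) and -0.43 (limma adjusted p = 0.0588). Among the dimmer probes of the listed genes, that of Siglech alone was called. Clec9a at the medium dose (-0.46, limma adjusted p = 0.0300) and Flt3 at the high dose (-0.41, limma adjusted p = 0.0215) passed the adjusted p but not the fold. Alveolar type 2 markers (0 of 7) had medians of -0.07, -0.26 and -0.17, with 0, 1 and 1 higher and 1, 4 and 2 lower before adjustment. Their mean log2 ratio was 4.66 to 4.80 in vehicle, 4.61 to 4.79 at the low, 4.30 to 4.74 at the medium and 4.38 to 4.84 at the high dose. Abca3 passed the adjusted p but not the fold at the medium and high dose (-0.35 each, limma adjusted p = 0.0264 and 0.0336). So did Slc34a2 at the high dose (-0.37, limma adjusted p = 0.0401). The marker that was higher, Etv5, had 0.23 and 0.34 at these doses (limma adjusted p = 0.27 and 0.088). Markers of alveolar macrophages (0 of 8), interstitial macrophages (0 of 6) and T cells (0 of 7 with a probe, of 8 listed) had medians between -0.22 and 0.22 at the 3 doses. Before adjustment these 3 lists together had, per list and dose, at most 2 genes in either direction.

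**Figure D5:**
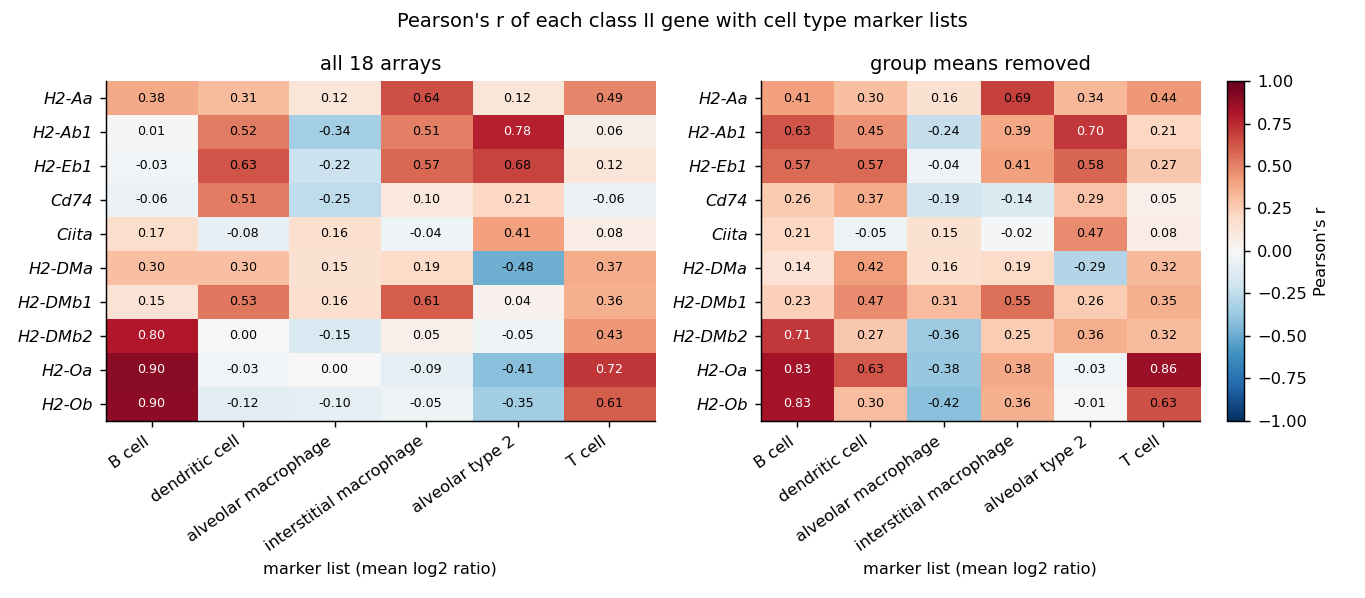
Pearson's r between each class II gene (rows) and the mean log2 ratio of 6 cell type marker lists (columns) over 18 arrays, on the left as measured and on the right after group means were removed; colour runs from -1 (blue) to 1 (red). H2-Oa and H2-Ob stand at 0.90 with B cell markers, H2-Ab1 and H2-Eb1 at 0.78 and 0.68 with alveolar type 2 markers. H2-Eb1 also stands at 0.63 with dendritic cell markers. H2-Oa stands at 0.72 with T cell markers, and after group means were removed at 0.86 with T cell and 0.83 with B cell markers.

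Across mice, the class II genes did not move as 1 block. The following values of Pearson's r are over 18 arrays that share slides and a reference, and they describe these arrays. H2-Oa and H2-Ob went together (r = 0.90, 0.82 after group means were removed), and so did H2-Ab1 and H2-Eb1 (0.90 and 0.82). H2-Oa and H2-Ab1 had r = -0.24 as measured and 0.43 after group means were removed. H2-Ab1 and H2-Eb1 went with the alveolar type 2 mean (0.78 and 0.68, or 0.70 and 0.58 after group means were removed). For H2-Ab1 that r was 0.78 on slide 1 and 0.96 on slide 2, and 0.71 without the 2 arrays farthest from the median type 2 mean. H2-Eb1 gave nearly as high an r with the dendritic cell mean (0.63, or 0.57 after group means were removed). With the interstitial macrophage mean H2-Eb1 gave 0.57 (0.41 after group means were removed). For H2-Ab1 the dendritic cell and interstitial macrophage means gave 0.52 and 0.51. H2-Ab1 gave r = 0.01 with the B cell mean as measured but 0.63 after group means were removed. H2-Aa went most with H2-DMb1 among the class II genes (0.75) and with the interstitial macrophage mean among the marker lists (0.64). The r of H2-Aa with the interstitial macrophage mean was 0.82 on slide 1 but 0.16 on slide 2. With the dendritic cell mean it was 0.65 on slide 1 and 0.89 on slide 2. H2-Oa also gave r = 0.72 with the T cell mean, 0.86 after group means were removed, beside 0.90 and 0.83 with the B cell mean. H2-Ob gave 0.61 and 0.63 with the T cell mean, beside 0.90 and 0.83 with the B cell mean. The part of each cell type in these values was not tested.

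Among 14666 genes outside the class II set that were well above background on at least 9 arrays, the 5 whose log2 ratio was most like that of H2-Oa over 18 arrays were Cd79b (r = 0.94), Ms4a1 (0.94), Traf3ip3 (0.93), AI467606 (0.92) and Pou2af1 (0.91), the last a coactivator of B cells. For H2-Ob they included Ms4a1 (0.93), Bank1 (0.92), Cxcr5 (0.90) and Ly6d (0.88). Cd79b and Ms4a1 belong to the B cell list above, so these are not further observations of it. For H2-Aa the most alike were Slamf8 (0.79), Spopl (0.75), Rps3a1 (0.74), Il17d (0.74) and Cybc1 (0.73). For Cd74 they were Rhog (0.84), Flot2 (0.82), Anxa5 (0.81), Fam122a (0.78) and Strn4 (0.78).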

How the data were processed

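Lung RNA of 18 mice was hybridized with Cy5 beside Cy3-labelled reference RNA, without dye swap. The authors deposited each array's median signal intensities of both channels, not background-subtracted, with a log10 ratio that the scanner software (Agilent Feature Extraction 11.0.1.1 per the file headers) had background-subtracted and dye-normalized. A second deposited table holds the authors' normalized log2 ratios, which correlated with the values below at r = 0.996 to 0.998 per array and was used as an alternative. Here, log2 ratios of median intensities without background subtraction were normalized by loess within arrays (limma 3.58.1, R 4.3.3), control spots having no weight. Outlier spots, 215 to 307 per array, were left out and spots of a probe averaged. Between 52.9% and 62.1% of spots were well above background in Cy5, and precision is limited by how many arrays there were. One limma fit with its empirical Bayes step took in all 4 groups, and p-values were adjusted by Benjamini-Hochberg over 55681 probes. The MAANOVA test of the study was not run, and limma stands in for it. For single genes, exact permutation tests (two-sided, on the difference of means) were added, which cannot go below 0.00794 (5 against 5 or 4 against 5 mice) or 0.0286 (4 against 4). Accessions were matched to symbols through RefSeq (27235 probes named), and a gene is represented by its brightest probe (highest mean log2 intensity over all arrays). Named were the 10 genes, other probes of them where they differ in call or direction, genes of the other lists called at any dose, and for H2-Aa, Cd74, H2-Oa and H2-Ob the 5 genes most correlated with each, of which 1 is not reported here. H2-Eb2, Irf1, Ctsd, Marchf1, Psmb8, Psmb9, the regulators and some markers were named outside this rule. So were other probes of H2-Ab1, Siglech, Nfyb, Irf1, Ctsd and Marchf1. The genes, lists and tests were chosen with earlier results of these data known. The fit was tested on simulated data. Alternatives were normexp background correction (offset 50), the scanner ratios, the authors' table, median centring, scale and Aquantile normalization, Cy5 alone, outlier spots kept, only probes well above background, the slide as a block, only the groups compared, adjustment over the 3 doses together, no fold limit, the mean of a gene's probes, each mouse left out in turn and, chosen after seeing the data, slide 2 left out and the slide row as a block.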

Additional observations from a re-analysis of the deposited data

Results flagged for a closer look

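H2-Aa of low-dose mouse 7 stood apart from its group, with a log2 ratio of 6.58 against 5.93 in the nearest of the other 3 mice. It was the only such value among 40 combinations of gene and group, and chance alone marks about 1 in 20.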

How the results depend on the processing

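The count of class II probes called at the medium dose, 3, was 1 with the scanner ratios, 1 with only the 2 groups compared, 0 with median centring and 0 without slide 2, and 1 to 3 with 1 mouse left out (1 without vehicle mouse 3 or 4 or medium-dose mouse 12, 14 or 15). The count at the high dose, 2, was 0 with the scanner ratios, 1 with p adjusted over the 3 doses together, 0 with median centring and 0 without slide 2, and 0 to 3 with 1 mouse left out; it was 0 without vehicle mouse 3 or 4 or high-dose mouse 16 or 17 and 1 without high-dose mouse 18 or 20. The low-dose count and the counts between doses stayed at 0 in each alternative run. Over all probes, 404 (medium dose) and 670 (high dose) were called in the fit reported. The scanner ratios called 696 and 1075, the fit without slide 2 called 435 and 533, and median centring 29 and 78. Only the 2 groups compared gave 385 at the medium dose, and adjustment over the 3 doses together 636 at the high dose. In the fits named above that left out 1 mouse, 355 to 410 (medium) and 548 to 682 (high) of all probes were called. H2-Oa kept its positive sign in each alternative (medium 0.65 to 0.99, high 0.39 to 0.77). Signs turned as follows. The scanner ratios gave H2-Ob -0.21 (low), -0.28 (medium) and -0.36 (high) and H2-Aa -0.21 at the medium dose. Median centring gave, at the low dose, H2-Aa 0.079, H2-Ab1 0.12, H2-Eb1 0.10 and H2-DMb1 0.0054, at the medium dose Cd74 0.10, and at the high dose H2-Aa 0.056, H2-Eb1 0.0015, H2-DMa 0.15, H2-DMb1 0.081 and Cd74 0.075. Scale normalization gave H2-Aa 0.0048 (low) and 0.21 (high), Cd74 0.017 (medium), H2-DMa 0.074 and H2-DMb1 0.056 (high). Cy5 alone gave H2-Ab1 0.080, H2-Eb1 0.080 and Ciita 0.084 at the medium dose and Ciita -0.0017 at the high one, and leaving out slide 2 gave Ciita 0.019 at the medium dose. With 1 mouse left out, signs turned for Ciita (low -0.014 to 0.11, medium -0.070 to 0.069, high -0.088 to 0.077), H2-Aa (low -0.19 to 0.055), H2-Ab1 (low -0.12 to 0.0056) and H2-DMa (low -0.27 to 0.024, high -0.093 to 0.036). Of the values that turned, H2-Ob at the medium dose alone was called in the fit reported. The cause was not tested. No paired analysis was possible because mouse numbers are not shared between groups, so the labels pair no mice; with the slide, or the row of the slide, as a block instead, no class II gene changed its call. Signal over background limits H2-DMb2, H2-Ob and Ciita most, and the H2-Aa ratio also rests on a low reference signal.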
